A study of Nannochloropsis oceanica with 6 samples.

Results

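The genes described here are the pair of Nannochloropsis oceanica genes annotated as bicarbonate and anion exchangers. NO01G02900 is described in the deposited tables as band 3 anion transport protein, and NO08G01230 as electroneutral sodium bicarbonate exchanger 1. They were taken by their gene identifiers, 2 of the 10633 genes in the tables, and both were among the 9244 genes that passed the filter on low counts. The cultures were of strain IMET1 of this unicellular eustigmatophyte from the sea, grown in 6 column reactors of 800 ml at 25 °C under continuous light of 80 µmol photons m-2 s-1, in a modified f/2 seawater medium buffered with 10 mM Tris-HCl at pH 8.2. All 6 cultures had air with 5% CO2 for 1 h. Of these, 3 stayed at 5% CO2 (high CO2, the control) and 3 were switched to 0.04% CO2 (low CO2), and all were sampled 24 h later for poly(A) RNA sequencing. Each library came from its own reactor, and all reactors were started from equal numbers of seed cells.

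Proteins of the SLC4 family are membrane carriers, and many, though not all, move bicarbonate, alone or with sodium, often against chloride. Band 3 (SLC4A1) is the chloride and bicarbonate exchanger of the mammalian red blood cell, and SLC4A8 exchanges sodium and bicarbonate for chloride in mammalian neurons. In diatoms, SLC4 proteins take up bicarbonate from sea water, where it is far more abundant than dissolved CO2, and such uptake is 1 step of a carbon-concentrating mechanism, which raises CO2 around the carboxylating enzyme Rubisco. The names of both genes come from resemblance to the mammalian proteins, and their transport activity was not measured here. Both genes also had anion exchanger family proteins of the green alga Micromonas as relatives in the deposited descriptions, and both carried the gene ontology term for inorganic anion exchanger activity. They were the only 2 genes in the tables assigned to the eukaryotic orthologous group of SLC4 transporters.

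Neither transcript passed the test between low and high CO2. The question was whether transcripts of candidate bicarbonate carriers were higher in cells that had been kept for 24 h at the CO2 level of air. NO01G02900 in low CO2 was at 0.947 times its high CO2 level and NO08G01230 at 1.13 times, differences that did not exceed the spread between libraries. The intervals of the changes reached from 0.79-fold to 1.14-fold for NO01G02900 and from 0.901-fold to 1.43-fold for NO08G01230. Of the 2 genes, 0 passed in edgeR's quasi-likelihood test at a Benjamini-Hochberg adjusted p below 0.05, and 0 had an unadjusted p below 0.05. Over all genes tested, 2.12% passed at the adjusted level and 18.6% at the unadjusted level. DESeq2 and limma passed neither gene. These are shares of the RNA sequenced, and RNA amounts per cell were not measured.

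The 6 libraries held 4620234 to 6112822 counts. In each group 1 library was less like the others, replicate 3 of high CO2 and replicate 1 of low CO2. Across the 9244 genes, which are not independent replicates, Pearson's r of log2-scaled counts was 0.985 between the other 2 high CO2 libraries and 0.989 between the other 2 low CO2 libraries. It was 0.93 to 0.96 in the pairs that held a deviating library. Antenna proteins, the light-harvesting proteins of this group of algae, were present as the organism's label implies, with 23 genes and up to 5132 FPKM on average.

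NO01G02900, the band 3 type gene, was counted with a steady share of the reads in every library. It held 549, 558 and 536 counts in high CO2 replicates 1, 2 and 3, and 480, 607 and 697 in low CO2 replicates 1, 2 and 3. Scaled to library size by TMM, a method that sets libraries equal over most genes, this gave 107, 111 and 118 CPM (counts scaled to library size) in high CO2 and 111, 101 and 107 in low CO2. The groups overlapped, and the highest library exceeded the lowest by 1.17-fold. The group levels were 112 ± 5.64 CPM in high CO2 and 106 ± 4.95 CPM in low CO2 (SD, n = 3 each). The log2 fold change, low minus high CO2, was -0.08 (SE 0.11, 95% interval -0.34 to 0.18, adjusted p = 0.737 in edgeR).

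The spread of NO01G02900 between replicates was small in TMM-scaled CPM. The coefficient of variation was 5.03% in high CO2 and 4.66% in low CO2 on the TMM-scaled CPM, while counting alone would give 3.79% to 4.57% at these counts. In FPKM it was larger, 6.78% in high CO2 and 12.1% in low CO2. The SD of log2 CPM within groups was 0.07, against a median of 0.25 over the genes tested, and 3.18% of the genes tested had a smaller SD. Those genes were not matched to NO01G02900 by their counts. A smaller absolute change between the groups was found at 16.1% of the genes tested.

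NO08G01230, the sodium bicarbonate exchanger type gene, varied more. It held 522, 503 and 367 counts in high CO2 replicates 1, 2 and 3, and 427, 708 and 681 in low CO2 replicates 1, 2 and 3. The TMM-scaled values were 102, 100 and 80.9 CPM in high CO2 and 98.6, 118 and 104 CPM in low CO2. Low CO2 replicates 2 and 3 were above all high CO2 libraries, low CO2 replicate 1 lay below high CO2 replicates 1 and 2, and high CO2 replicate 3 was the lowest of all. The groups thus overlapped, at 94.3 ± 11.6 CPM in high and 107 ± 9.87 CPM in low CO2 (SD, n = 3 each). The log2 fold change was 0.18 (SE 0.14, 95% interval -0.15 to 0.51, adjusted p = 0.52 in edgeR). Its within-group SD of log2 CPM was 0.16, and 25.2% of the genes tested had a smaller one.

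**Figure D1:**
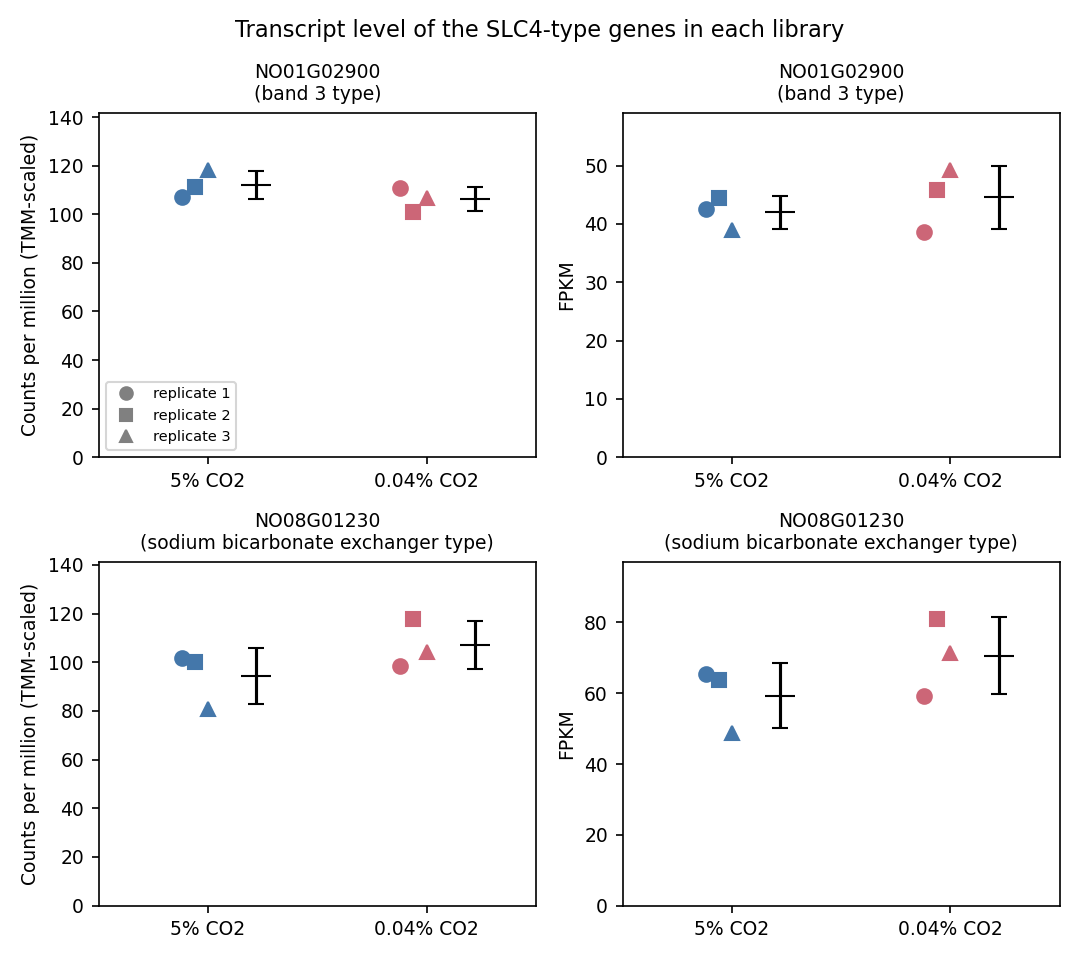
TMM-scaled CPM (left) and FPKM (right) of NO01G02900 (top) and NO08G01230 (bottom) in the 3 libraries at 5% CO2 (blue) and the 3 at 0.04% CO2 (red), with the symbol giving the replicate number and black marks the mean ± SD. The groups overlap in all 4 panels, and the lowest value of NO08G01230 is high CO2 replicate 3, at 80.9 CPM and 48.9 FPKM.

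The 2 deviating libraries, high CO2 replicate 3 and low CO2 replicate 1, held the lowest CPM of NO08G01230 in their groups. Without high CO2 replicate 3, its log2 fold change was 0.08 (SE 0.13, adjusted p = 0.804 in edgeR). Without low CO2 replicate 1 it was 0.23 (SE 0.14, adjusted p = 0.261), while 17.2% of all genes tested passed in that comparison. Without both libraries, 36.6% of all genes tested passed, and neither carrier did: the log2 fold change was 0.13 (SE 0.10, 95% interval -0.06 to 0.33, adjusted p = 0.288) for NO08G01230 and -0.07 (SE 0.09, 95% interval -0.26 to 0.12, adjusted p = 0.575) for NO01G02900. Both libraries were picked out in these same counts, and leaving out the library least like its group favours a smaller spread. The shares of genes passing without them may therefore be too high and are not read as the extent of the response to CO2. No adjusted p below 0.05 was found for either gene under any of the 17 other settings run.

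**Figure D2:**
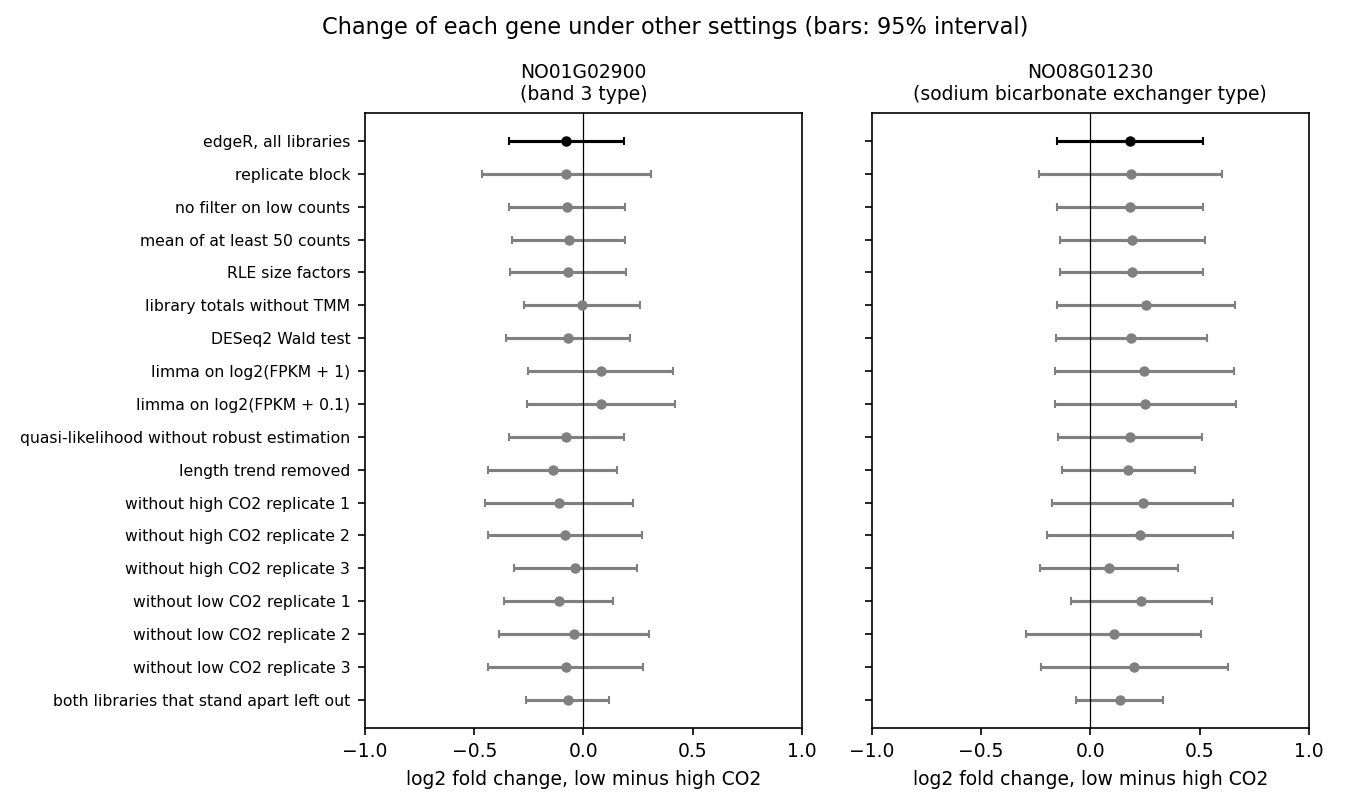
Log2 fold change, low minus high CO2 (horizontal axis), of NO01G02900 (left) and NO08G01230 (right) with all libraries (black) and under each other setting (grey), with 95% intervals as bars. Every interval includes 0, and the estimates of NO08G01230 all lie above 0, between 0.08 and 0.26.

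Gene length entered the FPKM values of the 2 genes differently. FPKM divides a count by the effective gene length and the library total, and for both genes in all 6 libraries the deposited FPKM equalled that quotient within 0.00504. NO08G01230 has 1 transcript in the tables and a length of 1800 bases in every library. NO01G02900 has 2 transcripts, of which 1 is named after the locus and the other is not, and its deposited length was 2762, 2716 and 3098 bases in high CO2 replicates 1, 2 and 3 and 2931, 2607 and 2560 bases in low CO2 replicates 1, 2 and 3. It was longest in high CO2 replicate 3 and low CO2 replicate 1, and the groups overlapped. All 7095 genes with 1 transcript had the same length in the 6 libraries, and 81 of the 3538 genes with more transcripts did. The longest length of NO01G02900 exceeded the shortest by 1.21-fold, and 86.8% of the 3500 tested genes with more than 1 transcript had a smaller range. The lengths of the separate transcripts were not used here, so their shares were not computed.

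**Figure D3:**
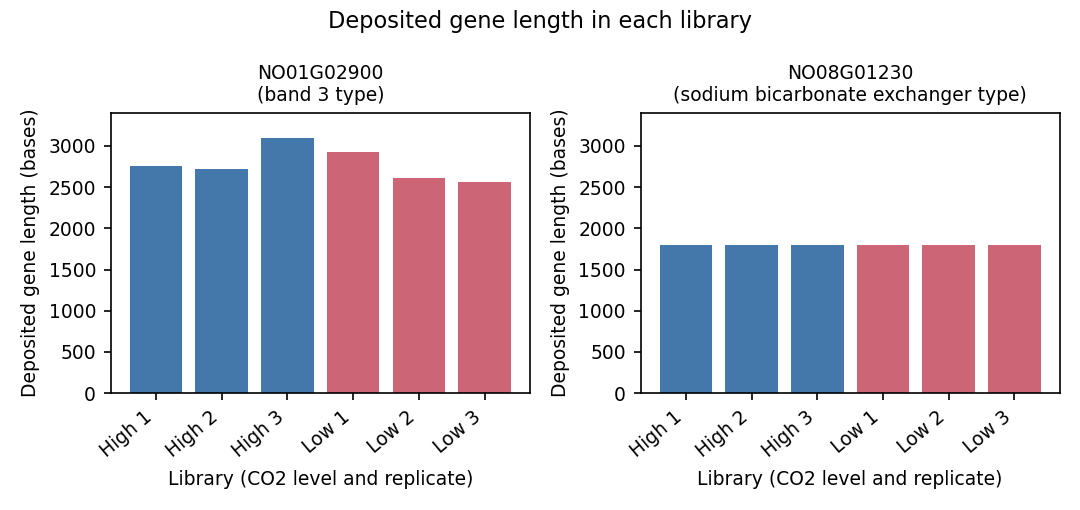
Deposited gene length in bases (vertical axis) of NO01G02900 (left) and NO08G01230 (right) in each library, with high CO2 in blue and low CO2 in red. NO08G01230 is at 1800 bases throughout, and NO01G02900 runs from 2560 to 3098 bases.

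In FPKM, NO01G02900 was at 42.5, 44.5 and 38.9 in high CO2 replicates 1, 2 and 3 and at 38.6, 45.8 and 49.2 in low CO2 replicates 1, 2 and 3. The means were 42.0 ± 2.84 and 44.5 ± 5.39 FPKM (SD, n = 3 each), so low CO2 was higher by 1.06-fold, the opposite direction to the count test. The libraries with the longest deposited length had the lowest FPKM. With the mean effective length over the 6 libraries put in place of each library's own, which was tried with the data already seen, the values ran from 41.0 to 45.0 FPKM, and the ratio of low to high CO2 was 0.995. The direction of the difference in NO01G02900 therefore depended on the unit, and in neither unit did it exceed the spread.

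NO08G01230 was at 65.5, 63.7 and 48.9 FPKM in high CO2 replicates 1, 2 and 3 and at 59.4, 81.0 and 71.5 FPKM in low CO2 replicates 1, 2 and 3. The means were 59.3 ± 9.13 and 70.6 ± 10.9 FPKM (SD, n = 3 each), a ratio of 1.19. Both units thus gave a higher mean in low CO2 for this gene, with overlapping groups.

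Per length, NO08G01230 was the more abundant of the 2 transcripts in every library. Its FPKM was 1.54, 1.43 and 1.26 times that of NO01G02900 in high CO2 replicates 1, 2 and 3 and 1.54, 1.77 and 1.45 times in low CO2 replicates 1, 2 and 3. The mean log2 ratio was 0.49 ± 0.15 in high and 0.66 ± 0.15 in low CO2 (SD, n = 3 each), a difference of 0.17 that did not exceed the spread (exact two-sided permutation test, p = 0.3, where the smallest possible p is 0.1). Of all 10633 genes, 66.5% had a lower mean FPKM than NO01G02900 and 76.8% a lower one than NO08G01230. The median gene was at 23.8 FPKM.

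Over the 6 libraries, the relation between the 2 transcripts depended on the scale. On the log2 scale of TMM-scaled CPM they ran opposite ways: high CO2 replicate 3 had the highest NO01G02900 and the lowest NO08G01230, and low CO2 replicate 2 had the lowest NO01G02900 and the highest NO08G01230. Pearson's r was -0.97 (exact permutation p = 0.00556, adjusted over 6 relations p = 0.0333) and Spearman's rho -0.94 (exact permutation p = 0.0167, adjusted p = 0.05), and r was -0.87 over the 4 libraries left without these 2. In FPKM the relation was positive, with r = 0.79 (exact permutation p = 0.0611, adjusted p = 0.0917) and rho = 0.83 (exact permutation p = 0.0583, adjusted p = 0.0917), and r = 0.93 without low CO2 replicates 1 and 3. With counts scaled to the library total alone, r was 0.07 (exact permutation p = 0.908, adjusted p = 0.919) and rho 0.09 (exact permutation p = 0.919, adjusted p = 0.919), and r was -0.66 without low CO2 replicates 1 and 3. The TMM factors ran from 0.938 in low CO2 replicate 1 to 1.07 in low CO2 replicates 2 and 3. Scaled to library totals alone, NO01G02900 ran from 104 CPM in low CO2 replicate 1 to 114 CPM in low CO2 replicate 3. Over all 6 libraries, r was negative on the TMM scale alone. How much of it came from the scaling was not tested, so it is not read as an opposition of the 2 genes. A test of this relation was not set out in advance on any scale, and the FPKM scale and the scaling to library totals were tried after seeing the data. The 6 relations of the adjustment were Pearson's r and Spearman's rho on each scale, over the same 6 libraries.

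The genes whose log2 CPM ran most like each carrier over the 6 libraries were sought among 5931 genes that had a description and averaged 5 FPKM or more, as a description without a test. For NO08G01230 these were NO08G02980, described after the cyanobacterial protein slr0889 (Pearson's r = 0.99), a gibberellin dioxygenase-like gene (NO26G00030, r = 0.98), a homolog of the vacuolar sorting protein VPS8 (NO10G00470, r = 0.98), a DNA helicase (NO12G00510, r = 0.98) and a sodium-coupled neutral amino acid transporter (NO05G00800, r = 0.97). All 5 kept an r of 0.97 to 0.99 in FPKM, though only 1 of them was again among the top 5 there. For NO01G02900 they were a ribosome production factor (NO03G03030, r = 0.98), the flavoprotein subunit of succinate dehydrogenase (NO01G01530, r = 0.98), a pheophytinase, which acts in chlorophyll breakdown (NO06G01470, r = 0.98), a DNA glycosylase (NO07G01670, r = 0.97) and an RNA polymerase II phosphatase, SSU72 (NO07G01930, r = 0.97). In FPKM the r of these 5 with NO01G02900 was negative, from -0.68 to -0.36, and 0 of them were among the top 5. An r of at least 0.95 was reached by 25 and 36 of the 5931 genes. The points share libraries, depth and scaling.

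The genes with the nearest locus numbers did not pass either. Beside NO01G02900, the protein phosphatase NO01G02890 was at 24.8 ± 1.21 FPKM in high and 41.1 ± 7.98 FPKM in low CO2 (log2 fold change 0.55, adjusted p = 0.241 in edgeR), and the amidase NO01G02910 at 5.47 ± 0.552 and 7.66 ± 3.76 FPKM (0.40, adjusted p = 0.599). Beside NO08G01230, NO08G01220, described as a cytochrome b5 reductase, was at 87.2 ± 3.86 and 78.7 ± 15 FPKM (-0.23, adjusted p = 0.385), and the acetyltransferase-like NO08G01240 at 8.69 ± 4.45 and 16.6 ± 0.826 FPKM (0.85, adjusted p = 0.276), all with n = 3 per group. The estimated counts of NO08G01230 were whole numbers within 0.004 in all 6 libraries and those of NO01G02900 in 0 of 6. The reason was not tested.

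The carriers were set beside 10 lists of ion transport and inorganic carbon genes, taken by words in the descriptions. Both carriers fall in these lists themselves and are counted in the values of the lists. In these lists, 77 genes were tested; 3 were higher and 1 lower in low CO2, and 73 did not pass (edgeR, adjusted p below 0.05; over all genes 1.22% were higher and 0.898% lower). The median log2 fold change of the 77 was 0.20, against 0.01 over all genes tested. Of the 15 genes with words for bicarbonate or anion transport, which include both carriers, 0 passed, with a median of 0.30; 5 had an unadjusted p below 0.05, and DESeq2 called 2. Over all genes tested, 18.6% had an unadjusted p below 0.05, DESeq2 called 6.11% and 51.4% had a log2 fold change above 0, the background for the counts of the lists here. By their wording this list also takes in organic anion pumps, a sucrose carrier-like gene and a choline transporter-like gene. NO08G01230 had the highest mean FPKM of this list. The molybdate-anion transporter NO02G00960 came next, at 49.3 ± 9.72 FPKM in high and 68.0 ± 12.2 FPKM in low CO2 (SD, n = 3 each; log2 fold change 0.34, adjusted p = 0.29 in edgeR). After it came NO01G02400, described as a membrane-associated transporter protein. It was lower, at 52.0 ± 4.42 FPKM in high and 41.9 ± 3.07 FPKM in low CO2 (log2 fold change -0.37, adjusted p = 0.23 in edgeR). Of the 15 genes, 11 had a log2 fold change above 0.

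Genes that could supply or use the sodium gradient of a sodium-coupled carrier did not pass. The sodium/potassium pump subunit NO16G01340, which in animals builds that gradient, was at 47.4 ± 13.1 FPKM in high and 67.0 ± 14.9 FPKM in low CO2 (SD, n = 3 each; log2 fold change 0.43, adjusted p = 0.327 in edgeR). Of 12 sodium and proton exchangers, counting NO08G01230, 0 passed, 4 had an unadjusted p below 0.05 and DESeq2 called 0. Their median log2 fold change was 0.42, the highest of these lists, and 10 of the 12 were above 0. By its wording this list also takes in NO11G02840, described as a sodium/calcium exchanger (log2 fold change 0.52, adjusted p = 0.215 in edgeR). The NhaA-type antiporter NO03G03670 was lower, at 40.9 ± 3.67 FPKM in high and 28.1 ± 0.251 FPKM in low CO2 (SD, n = 3 each, log2 fold change -0.44, adjusted p = 0.15 in edgeR). Of the list of sulfate transporters, related to the SLC26 anion carriers, 0 of 12 tested genes passed, 3 had an unadjusted p below 0.05 and DESeq2 called 1. By its wording this list takes in 4 genes described as adenosine phosphosulfate transporters, which carry a nucleotide-bound sulfate. NO11G01800, the low affinity sulfate transporter 3 type, had 36.9 ± 5.24 FPKM in high and 56.5 ± 7.52 FPKM in low CO2, a log2 fold change of 0.54 (adjusted p = 0.0985 in edgeR). Of the 6 genes with words for chloride channels, 0 passed in edgeR, 2 had an unadjusted p below 0.05 and DESeq2 called 0. NO09G02620 and NO09G02630 of this list are described as glutathione S-transferase L3.

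Among genes of families that hold inorganic carbon carriers in Chlamydomonas, 1 passed as higher and 1 as lower in low CO2 with all 6 libraries. Neither passed under every other setting. The formate and nitrite carrier family holds LCIA, a bicarbonate channel of the chloroplast envelope in the green alga Chlamydomonas, and its genes NO07G02740 and NO02G02160 were at 48.8 ± 1.62 against 51.0 ± 5.67 FPKM and at 16.8 ± 3.94 against 16.8 ± 2.14 FPKM in high and low CO2 (log2 fold changes 0.00 and -0.07, adjusted p = 0.997 and 0.878 in edgeR). Of the 4 genes for nitrate, nitrite and formate carriers, the 2 sodium pump genes and the 1 gene described after a low CO2-induced protein of Chlamydomonas (NO02G03650, also described as alcohol dehydrogenase [NADP(+)]), 0 passed in edgeR, 0 had an unadjusted p below 0.05 and DESeq2 called 0. NO02G03650 was at 72.2 ± 5.79 FPKM in high and 61.0 ± 4.11 FPKM in low CO2 (log2 fold change -0.30, adjusted p = 0.286 in edgeR). ABC transporters of subfamily C hold HLA3, a bicarbonate transporter of the Chlamydomonas plasma membrane, and of 8 such genes 1 rose and 1 fell. NO04G00100, described as multidrug resistance-associated protein 4, was at 18.7, 18.3 and 17.9 FPKM in high CO2 replicates 1, 2 and 3 and at 40.7, 59.2 and 62.6 FPKM in low CO2 replicates 1, 2 and 3. These groups did not overlap, as in 25.4% of all genes tested, and NO04G00100 rose 2.80-fold (log2 fold change 1.48, SE 0.14, adjusted p = 0.00419 in edgeR). It did not pass without high CO2 replicate 2 (adjusted p = 0.0585). NO06G01500, described as multidrug resistance-associated protein 7, fell from 13.6 ± 0.152 to 8.02 ± 1.84 FPKM (log2 fold change -0.84, adjusted p = 0.0435 in edgeR). It did not pass without any 1 of the high CO2 libraries or without low CO2 replicate 2 or 3 (adjusted p = 0.102 to 0.186), nor with library totals in place of TMM scaling (adjusted p = 0.114). The substrates of these 2 genes were not measured.

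Proton pumps and carbonic anhydrases can bear on bicarbonate carriers through pH and through the supply of bicarbonate. A link to NO01G02900 or NO08G01230 was not tested here. Of 17 proton pump genes, the neighbouring NO12G00380 and NO12G00390, both described as proton ATPase 1A, rose 6.88-fold and 5.09-fold (adjusted p = 0.0142 and 0.032 in edgeR). NO12G00380 was at 1813, 923 and 933 FPKM in low CO2 replicates 1, 2 and 3. NO12G00390 was at 19.1, 17.4 and 6.33 FPKM in high CO2 replicates 1, 2 and 3. Without 1 library, the log2 fold change of NO12G00380 ran from 2.28 (low CO2 replicate 1 left out) to 2.98 (low CO2 replicate 2 left out). That of NO12G00390 ran from 2.01 (high CO2 replicate 3 left out) to 2.60 (high CO2 replicate 1 left out). Neither passed without high CO2 replicate 1 or 2 (adjusted p = 0.0902 to 0.132), NO12G00380 did not pass without high CO2 replicate 3 (0.0611), and NO12G00390 did not pass without low CO2 replicate 2 or 3 (0.0771 and 0.123). Their neighbour NO12G00370 has the same description and was at 503.5 ± 14.2 FPKM in high and 560.3 ± 195 FPKM in low CO2 (SD, n = 3 each; log2 fold change 0.11, adjusted p = 0.848 in edgeR). Reads of neighbouring genes with the same description may be divided between them. Of 5 carbonic anhydrases 0 passed in edgeR, 2 had an unadjusted p below 0.05 and DESeq2 called 1. The authors' deposited table held only genes with an adjusted p below 0.05 there, 217 in all, and neither SLC4-type gene was among them. It held 4 genes of the lists, with log2 fold changes of 1.49 for NO04G00100, 2.79 for NO12G00380, 2.36 for NO12G00390 and 1.22 for NO05G05240, described as multidrug resistance-associated protein 1, in the authors' deposited table. In the edgeR test run here, NO05G05240 had a log2 fold change of 1.21 and did not pass (adjusted p = 0.0527), while its adjusted p in the authors' deposited table was 0.0004. NO06G01500 was not among the genes of the authors' deposited table. Whether that table also had a limit on fold change is not stated here, so absence from it need not mean a high adjusted p.

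**Figure D4:**
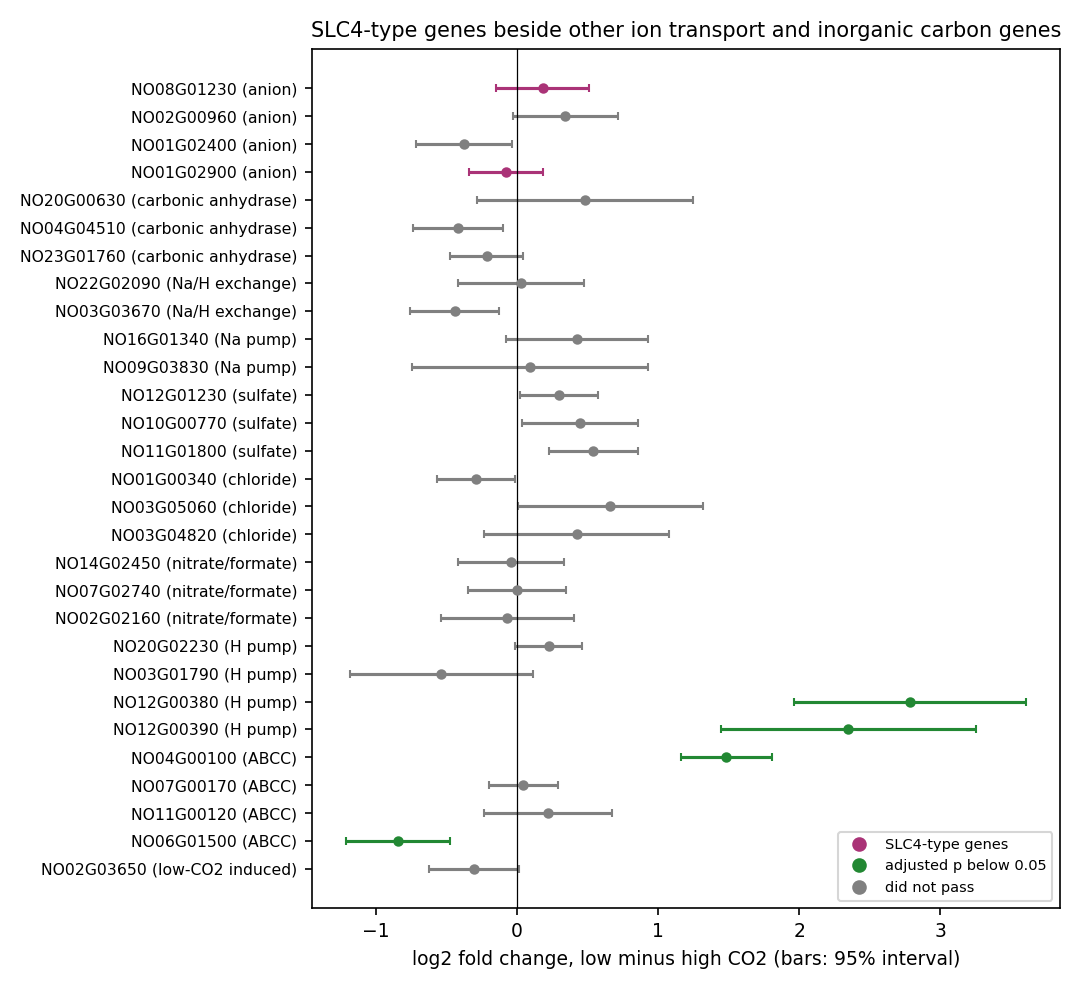
Log2 fold change, low minus high CO2 (horizontal axis), with 95% intervals as bars, of the SLC4-type genes (purple) and of the genes named by rule from 10 lists of ion transport and inorganic carbon genes (green where the adjusted p was below 0.05, grey otherwise). NO01G02900 and NO08G01230 lie at -0.08 and 0.18, and the 4 green genes at 2.78, 2.35, 1.48 and -0.84.

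Leaving out libraries changed how many of the list genes passed, while neither carrier passed in any of these fits. The count was 1, 0 and 2 when high CO2 replicate 1, 2 or 3 was left out, where 0.376%, 0.193% and 0.727% of all genes tested passed. It was 19, 2 and 2 when low CO2 replicate 1, 2 or 3 was left out, where 17.2%, 0.516% and 0.538% of all genes passed. Without both deviating libraries, 40 of 77 list genes passed, 51.9%, beside 36.6% of all genes tested, while NO01G02900 and NO08G01230 were among those that did not. These counts were added after seeing the data. The deviating libraries were picked out in these same data, so the shares passing without them may be too high.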

How the data were processed

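The submitters' processing notes name edgeR, StringTie, featureCounts, Picard, STAR and Trim Galore; versions, roles, genome build and annotation are not given in the sources used here. Per the file headers, the deposited tables of the libraries give expected counts, FPKM and TPM for each gene. The authors' expected counts carry no normalization and were rounded to whole numbers here. TPM and FPKM deposited by the authors are scaled by effective length and library. The authors' deposited table gave a log2 fold change, a p-value and an adjusted p-value for 217 genes.

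Genes passing filterByExpr (9244) were scaled by TMM and tested with edgeR 4.0.16 (R 4.3.3), robust quasi-likelihood, low minus high CO2, adjusted over all genes tested. Dividing a log2 fold change by the root of its F gave its standard error, with 95% intervals from the test's degrees of freedom. The fit was also run on simulated counts with known changes. These held no deviating libraries, so that run does not bear on how the calls depend on such libraries. Alternatives used DESeq2 1.42.0, limma 3.58.1 and other filters and scalings; SciPy 1.17.1 gave exact permutation tests. CPM in the text are TMM-scaled unless another scaling is named.

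The genes and lists were chosen with earlier results of these data known. Lists are word patterns on the protein descriptions. Named genes were the 2 carriers; from each list, the called genes and the 3 of highest mean FPKM, of which those bearing on the carriers are in the text and the rest in the plot of the lists; the 5 most similar genes; and the genes at adjacent locus numbers. The reference gene table held 160 genes, of which 0 matched, so positions and sequences were not used here.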

Additional observations from a re-analysis of the deposited data

How the results depend on the processing

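NO08G01230 stayed higher in low CO2 and NO01G02900 lower under every count-based setting run, without passing. With limma on log2(FPKM + 1) and log2(FPKM + 0.1), NO01G02900 turned to log2 fold changes of 0.0787 and 0.0802, and the relation between the genes turned from negative to r = 0.79 in FPKM and 0.0657 with library totals. Leaving out 1 library gave log2 fold changes of -0.11 to -0.04 for NO01G02900, 0.08 to 0.24 for NO08G01230, and 0.09 to 0.24 for their log2 ratio. Over all genes, 196 passed, and 568 did with DESeq2. Without 1 library 18 to 1610 passed, and 3402 did without both deviating libraries, which were picked out in these same counts. With the replicate block, 21 passed, among them 0 of the 77 list genes (adjusted p = 0.0718 for NO04G00100, 0.101 for NO12G00380, 0.122 for NO12G00390 and 0.244 for NO06G01500). The log2 fold changes of NO01G02900 and NO08G01230 were then -0.08 and 0.19. The labels state no pairing of same-numbered libraries, so the main test used none. The deviations of same-numbered libraries had r = -0.36, 0.08 and -0.43. With so few libraries, of which 1 per group deviated, these values cannot decide whether libraries were paired. With no TMM factors, the median log2 fold change of all genes was 0.09, and those of NO01G02900 and NO08G01230 were -0.01 and 0.26. Of the 5 most similar genes, 3 were the same by Spearman's rho for each carrier.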
